A study of Mus musculus with 8 samples.

Results

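REST and its partners were followed in mouse ES cells on the way to neural precursors, as total RNA and as RNA held by Argonaute (Ago), the protein core of the RNA-induced silencing complex. The 9 genes are Rest, Rcor1, Ctdsp1, Ctdsp2, Ctdspl, Ptbp1, Ptbp2, Nr2e1 and Onecut2, taken as reported targets of miR-124 or miR-9 or as parts of the REST circuit, by a rule that uses gene names and no measured value. Every probe that carries the name of 1 of these genes was taken, which gave 15 of 55681 probes and 9 of 36163 gene names. The cells were E14Tg2A ES cells of strain 129/Ola, an established mouse line that all 8 arrays share. Undifferentiated ES cells, kept in serum and LIF, were the start of the series (0 days in vitro, DIV). The later stages were epiblast-like aggregates, named ELA, after 2 DIV, neural progenitors, named NPC, after 6 DIV, and neural precursors, named NPC/Neu, after 10 DIV. The 3 later stages were grown in a chemically defined medium with N2 and B27 supplements, and B27 was left out in the last step. At each of the 4 stages, 1 array received RNA immunoprecipitated from the cytosolic fraction with a pan-Ago antibody (Ago–RNA) and 1 array received total RNA. There are thus 8 arrays with 1 array per condition. Each array held RNA pooled from 3 independent experiments per the labels, so the spread between experiments is not measured and no p-value is given.

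REST is a zinc finger repressor that silences neuronal genes through a DNA element called RE1. It works with corepressors such as CoREST, the product of Rcor1, and with the small CTD phosphatases encoded by Ctdsp1, Ctdsp2 and Ctdspl, which dephosphorylate the tail of RNA polymerase II and whose introns carry genes of the miR-26 family. miR-124 and miR-9 are abundant in the nervous system, their genes are themselves repressed by REST, and their reported targets include parts of the REST machinery, so that miRNAs and repressor oppose each other. Ptbp1, a splicing repressor, is a reported miR-124 target that prevents productive splicing of its neuronal relative Ptbp2. Nr2e1, an orphan nuclear receptor of neural stem cells also called Tlx, and Onecut2, a homeodomain factor, are reported miR-9 targets.

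The sequence that makes an mRNA a candidate target of miR-9 is short, and it is shown here because matches to it were searched in the 9 mRNAs. Mature miR-9-5p has 23 bases in RefSeq (GRCm38.p6) and is given below with its seed, bases 2 to 8, in capitals. The 3 genes Mir9-1, Mir9-2 and Mir9-3 encode the same mature sequence. For miR-124 no sequence was used here, so its matches were not searched.
miR-9-5p: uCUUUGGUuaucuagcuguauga

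The complement of that seed in an mRNA reads ACCAAAG. It was searched in sense orientation in the 3′ UTR of the longest GENCODE transcript of each gene (build mm9, NCBI37). At least 1 match was present in 6 of the 9 genes, Rest, Ctdsp2, Ptbp1, Ptbp2, Nr2e1 and Onecut2, and Rcor1, Ctdsp1 and Ctdspl had none in this region. Of all 19815 genes with an annotated 3′ UTR, 10.9% held a match, and of the 8713 genes with a 3′ UTR of at least 1000 bases, 20.2% did. The 3′ UTRs of the members are long, with a median of 3349 bases against 824 bases for all genes. The sites outside Onecut2 are printed 5′ to 3′ with the match in capitals, 16 bases before it and 1 base after it.
Rest, chr5:77715185-77715208, plus strand: tacttttctgaggcaaACCAAAGg
Ctdsp2, chr10:126435355-126435378, plus strand: cttggttctccatgtgACCAAAGc
Ptbp1, chr10:79326746-79326769, plus strand: accttcaaaattttggACCAAAGt
Ptbp2, chr3:119422257-119422280, minus strand: ctgacaaccaggtgggACCAAAGt
Nr2e1, chr10:42282235-42282258, minus strand: tcatcaaagtgctgaaACCAAAGg

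None of these 5 matches was followed by an A, the base that commonly stands opposite the first base of a miRNA at functional sites. Onecut2 differed from the other members in number. Its 3′ UTR of 14356 bases on chromosome 18 held 14 matches, and 9 of them were followed by an A. Of all genes with an annotated 3′ UTR, 3.53% had a match followed by an A, and of those with at least 1000 bases, 6.48% did. Sites of other lengths, the coding regions and other transcripts were not searched. A match of 7 bases is a description of the sequence and does not show that miR-9 binds there.

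**Figure D1:**
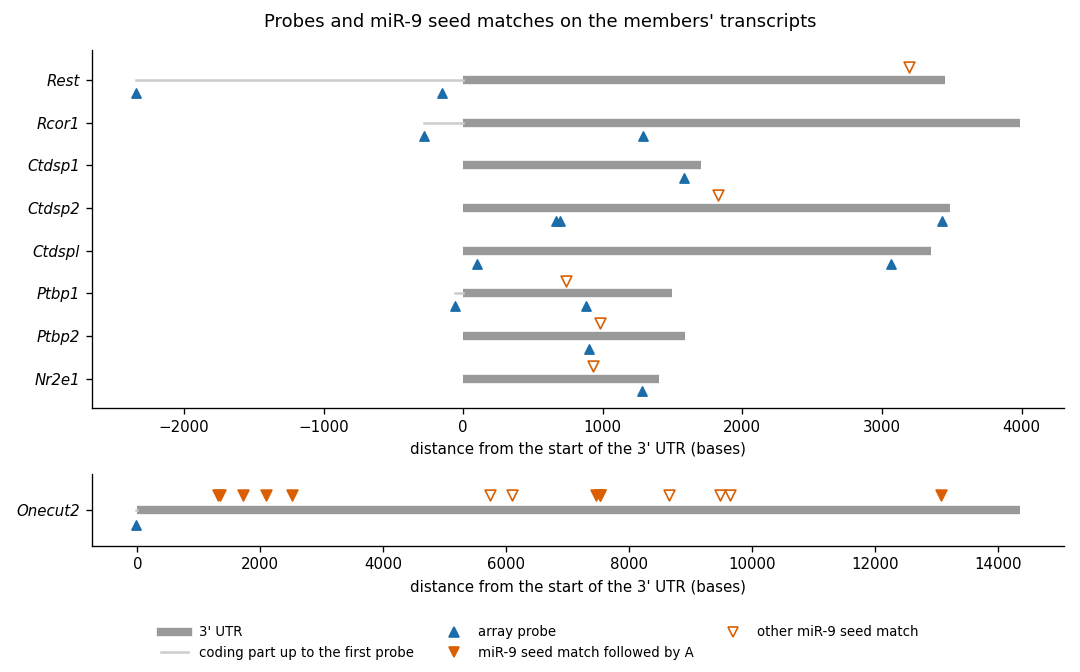
Position of the array probes and of miR-9 seed matches along the transcripts of the 9 genes, as distance in bases from the start of the 3′ UTR; values below 0 lie in the coding part. Onecut2 is drawn on its own scale and holds 14 of the matches, and the 3 probes of Ctdsp2 sit at both ends of its 3′ UTR.

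The probes sample different parts of these mRNAs. In the mm9 annotation, Rest lies on chr5:77694516-77715457, and both of its probes are in the coding region, at bases 1212 to 1271 (probe 1) and 3404 to 3463 (probe 2) of a transcript of 7004 bases. Rcor1 (chr12:112277561-112354112) has probe 1 across an exon junction of the coding region and probe 2 in the 3′ UTR. Ctdsp1 (chr1:74438083-74443859) is measured 61 bases from the transcript end. Ctdsp2 (chr10:126415773-126437031) has probes 1 and 2 early in the 3′ UTR, where they share 31 of their 60 bases, and probe 3 at its very end. Ctdspl (chr9:118835571-118953116) has a probe at each end of its 3′ UTR. For Ptbp1 (chr10:79317172-79327516), probe 1 covers the end of the coding region and probe 2 the 3′ UTR, and each differs by 1 base from the transcript, whereas the other 13 probes match exactly. Ptbp2 (chr3:119421660-119486306) and Nr2e1 (chr10:42281769-42303438) have 1 probe each in the 3′ UTR. The probe of Onecut2 (chr18:64500002-64560641) lies over the stop codon, 14320 bases before the transcript end.

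Signals are given as log2 of the background-corrected and quantile normalized intensity, for each probe in the order ES, ELA, NPC and NPC/Neu. A signal on this scale depends on the probe, so only differences within a probe were compared. A change was called when it reached 1 or more on the log2 scale, a ratio of 2, among probes well above background by the scanner criterion on at least 1 of the arrays compared. As the only measure of technical error, the SD between spots was taken from 399 probes that were printed 10 times on every array, at a signal like that of the member. It covers the spread within an array and says nothing of the spread between cultures. Of the 15 probes, 14 were well above background on all 8 arrays, and Nr2e1 on 4 of them. Fewer cells of a type and less RNA per cell cannot be told apart in these samples.

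The stages carried the markers of their labels. The summed total RNA signal of 7 ES cell genes, Pou5f1, Nanog, Zfp42, Klf4, Esrrb, Nr0b1 and Fgf4, was 224917 in ES and 64880 in ELA, and then 4446 in NPC and 8658 in NPC/Neu. The 4 epiblast genes Fgf5, Otx2, Pou3f1 and Dnmt3b summed to 175287 in ES and 379540 in ELA, and to 70730 in NPC and 77877 in NPC/Neu. Fgf5 was highest in ELA at 14.78 on the log2 scale, but Otx2 stayed between 15.53 and 16.06 at all stages. The 4 neural progenitor genes Sox1, Nes, Pax6 and Hes5 summed to 9215 in ES, 112746 in NPC and 133923 in NPC/Neu, and so were not highest in NPC. The 4 neuronal genes matched (Tubb3, Nefl, Dcx and Stmn2) summed to 39987 in ES and 258996 in NPC/Neu. Glial, endodermal and mesodermal lists stayed low, between 480 and 4632 in sum, but all 3 were at their highest in NPC/Neu. There Olig2 was at 9.31, Foxa2 at 10.10 and Eomes at 11.33. Not all genes of these lists went that way. Aqp4 was highest in ELA, at 8.54, and Sox17 and T in NPC, at 8.08 and 9.73. Gata4 and Hand1 were well above background in ES, at 7.64 and 7.80, and not in NPC/Neu. The glial marker S100b, the endodermal markers Gata6 and Afp and the mesodermal marker Mixl1 were not well above background in total RNA at any stage. The part of any of these cell types in the values below was not tested.

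Total RNA of the repressor itself fell from ES to NPC/Neu and was lower at every step. Rest probe 1 read 14.51, 13.60, 12.44 and 12.09 in total RNA. Rest probe 2 read 12.79, 11.75, 10.44 and 9.87. Both probes were thus highest in ES and lowest in NPC/Neu, with no step in the other direction. From ES to NPC/Neu, probe 1 fell by 2.41 (spot SD 0.07) and probe 2 by 2.93 (spot SD 0.09), ratios of 5.33 and 7.61. The larger steps came before NPC. ES to ELA gave −0.90 and −1.05, ELA to NPC −1.16 and −1.31, and NPC to NPC/Neu −0.35 and −0.57.

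Rcor1, which encodes CoREST, and the phosphatase genes Ctdsp1 and Ctdspl did not follow Rest. Rcor1 probe 2, in the 3′ UTR, read 12.15, 12.47, 13.18 and 13.62, a rise of 1.47 (spot SD 0.08) from ES to NPC/Neu. Probe 1, in the coding region, read 7.75, 8.11, 8.30 and 8.42, and its difference of 0.68 (spot SD 0.17) did not reach the limit for a call. Over the processing settings that difference lay between 0.63 and 1.22, so the call depends on the setting. Both Rcor1 probes were thus lowest in ES and highest in NPC/Neu. Ctdsp1, a small CTD phosphatase reported as a miR-124 target, read 13.33, 13.35, 14.05 and 14.34, and rose by 1.01 (spot SD 0.07), at the limit for a call. Its ES and ELA values differed by less than the spot SD of 0.06, and the increase came after ELA. Ctdspl rose from ES to ELA in both probes, by 1.17 (spot SD 0.06) and 1.15 (spot SD 0.11). It did not go on rising afterwards. Its probe 1 read 12.04, 13.21, 12.84 and 13.16, and probe 2 read 9.52, 10.67, 10.24 and 10.21.

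The 3 probes of Ctdsp2 agreed at first and then parted. From ES to ELA all 3 were higher, by 0.82, 0.72 and 1.05 (spot SD 0.06, 0.08 and 0.07). From ELA to NPC the overlapping probes 1 and 2, early in the 3′ UTR, fell by 1.62 and 1.84 (spot SD 0.07 and 0.11). Probe 3, which ends at the last base of the transcript, gave 0.43 (spot SD 0.06) in the other direction. Over the whole course probe 1 went from 11.42 to 10.60, probe 2 from 10.54 to 9.31 and probe 3 from 10.87 to 12.72. The difference from ES to NPC/Neu was thus −0.82, −1.23 and 1.85, and no single value describes the gene. The miR-9 seed match of Ctdsp2 lies between the early probes and the late one.

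The polypyrimidine tract proteins changed in opposite directions. Ptbp1 probe 1 read 13.02, 12.92, 12.44 and 11.70, and fell by 1.32 (spot SD 0.08) from ES to NPC/Neu. Ptbp1 probe 2 read 15.31, 15.30, 14.89 and 14.56, a difference of −0.75 (spot SD 0.07) that did not reach a call. Over the processing settings this difference lay between −1.51 and −0.75, so the call depends on the setting. Neither probe moved from ES to ELA by more than 2 spot SDs. Ptbp2 read 10.92, 11.60, 12.63 and 12.73, and rose by 1.81 (spot SD 0.09). Most of the rise of Ptbp2 fell between ELA and NPC, at 1.03, and from NPC to NPC/Neu the difference was 0.10 (spot SD 0.07).

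The 2 transcription factors reported as miR-9 targets had the largest increases. Nr2e1 was not well above background in ES and ELA, at 6.30 and 6.25, and read 10.26 in NPC and 12.78 in NPC/Neu. Total RNA of Nr2e1 was at least 9.82-fold higher in NPC than in ELA and at least 65.7-fold higher in NPC/Neu than in ES. These are lower bounds, set against the lowest signal well above background on the dim array. Between NPC and NPC/Neu, both measured, it rose 5.75-fold. Onecut2 read 7.99, 10.71, 12.26 and 14.21, a rise at each step and by 6.21 (spot SD 0.09) in all, or 74.2-fold. Already from ES to ELA it rose 6.56-fold, which placed it above 99.9% of the probes compared in that step.

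**Figure D2:**
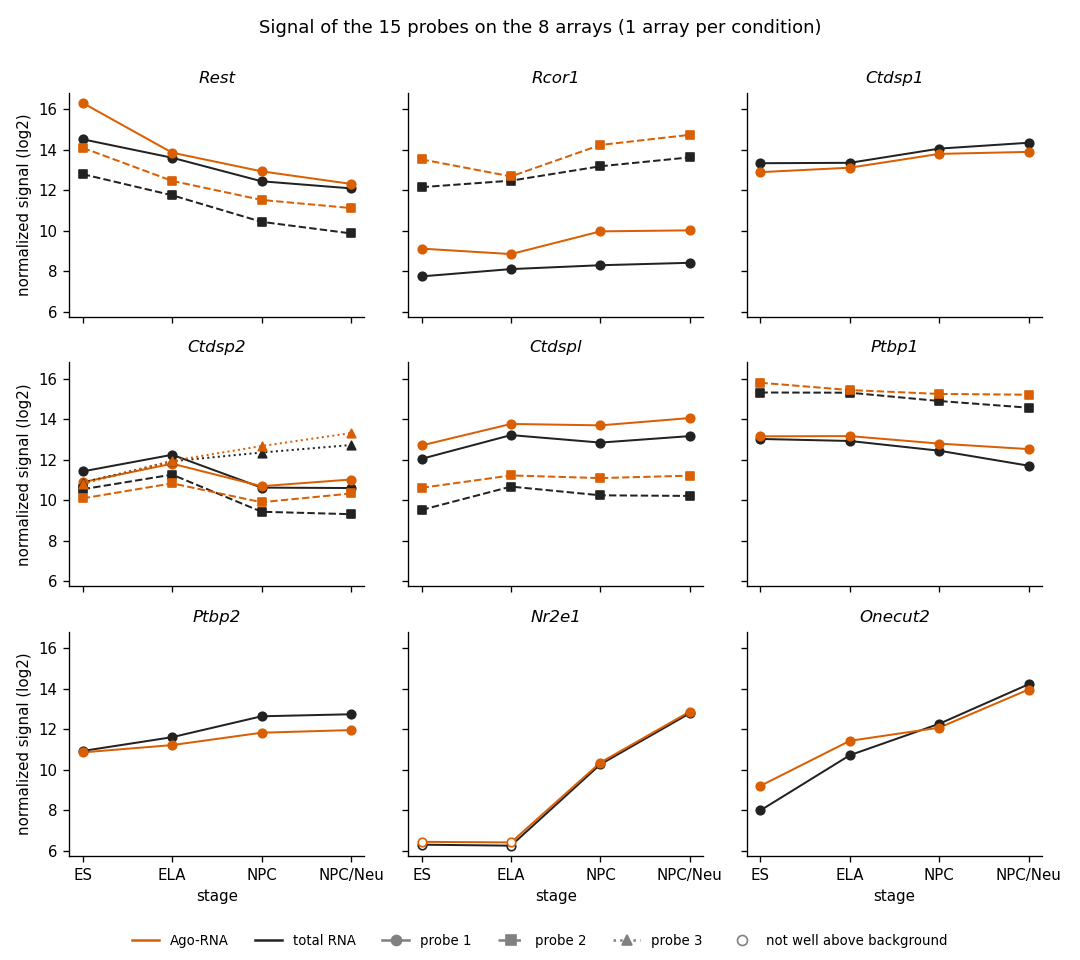
Normalized log2 signal (vertical axis) of the 15 probes of the 9 genes at the 4 stages (horizontal axis), total RNA in black and Ago–RNA in orange; marker and line style number the probes of a gene, and open markers are not well above background. Rest falls in both RNAs, Nr2e1 and Onecut2 rise, and the 3 Ctdsp2 probes part after ELA.

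Counted over probes, 7 of 15 were higher by 1 or more in NPC/Neu than in ES (Rcor1 probe 2, Ctdsp1, Ctdsp2 probe 3, Ctdspl probe 1, Ptbp2, Nr2e1 and Onecut2), where 16.8% of all 36543 probes compared were. Another 4 of 15 were lower by 1 or more (both Rest probes, Ctdsp2 probe 2 and Ptbp1 probe 1), against 16.6% of all. The median of the members was 0.69 and that of all probes −0.06. From ES to ELA, 4 of 14 were higher, against 4.90%, and 1 was lower, against 5.17%. From ELA to NPC, 3 of 15 were higher, against 11.1%, and 4 were lower, against 10.1%. From NPC to NPC/Neu, the 2 probes of Nr2e1 and Onecut2 were higher, against 5.92%, and no member was lower, against 4.17%. Probes of a gene are not independent, and the members are few.

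Ago enrichment, E, is the log2 signal of Ago–RNA minus that of total RNA, probe by probe, within a stage. After quantile normalization it is a relative measure, with a median between −0.03 and 0.05 over all probes compared at each stage. Control immunoprecipitations were not used here, so E includes whatever the antibody beads retain. The ES Ago–RNA array was the brightest before normalization, with an upper quartile of 3039 in mean spot intensity against 1060 to 1774 on the other 7, and every E of ES rests on it.

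Rest and Rcor1 stood high in ES. Rest probe 1 had signals of 16.30 in Ago–RNA and 14.51 in total RNA of ES, an E of 1.80 (spot SD 0.10), or 3.48-fold. Rest probe 2 had 14.09 and 12.79, an E of 1.29 (spot SD 0.06). In Rcor1 the E of ES was 1.37 (spot SD 0.12) for probe 1 and 1.36 (spot SD 0.06) for probe 2. Both genes thus exceeded a ratio of 2 at both of their probes, above 94.3% to 98.5% of all probes. Onecut2, whose total RNA was lowest in ES, had an E of 1.21 (spot SD 0.12), and Ctdspl had 0.66 and 1.09 at its probes. In all, 6 of 14 probes had an E of at least 1 in ES, where 10.6% of all 35961 probes did. None had an E of −1 or below, against 12.0%.

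The other members were close to parity in ES. Ctdsp1 had an E of −0.44, and Ctdsp2 of −0.53, −0.45 and −0.06 at probes 1 to 3. Ptbp1 had 0.13 and 0.48, and Ptbp2 −0.07. With Ago–RNA and total RNA arrays normalized separately, Ctdsp1, Ctdsp2 probe 3 and Ptbp2 had the opposite sign, at most 0.36, so that no direction can be given for them in ES.

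In ELA no member reached an E of 1, against 4.98% of all probes. Under separate normalization 3 probes reached an E of 1, where 8.98% of all probes did. With all arrays normalized together none reached −1, against 4.74%. Rest was at 0.25 and 0.71 at probes 1 and 2, and Rcor1 at 0.74 and 0.20. For Rest probe 1 this is a variation of E, ΔE, of −1.55 (spot SD 0.08), and only 1.26% of probes had a lower one. Over the processing settings this ΔE lay between −1.66 and −1.02. With scaling to the 75th percentile Rest probe 1 had an E of 1.22 in ES. Its Ago–RNA fell by 2.45, and the difference in total RNA was −0.90. The other Rest probe had a ΔE of −0.58 (spot SD 0.07), so the 2 probes share the direction and differ in size. Rcor1 probe 2 had a ΔE of −1.16 (spot SD 0.07), from a difference of −0.84 in Ago–RNA and of 0.32 in total RNA. Rcor1 probe 1 had −0.63 (spot SD 0.21). Thus 2 of 14 member probes had a ΔE of −1 or below between ES and ELA, where 6.71% of all probes did, and none had 1 or above, against 8.56%. The highest E of any member at any stage was 1.80, so no probe reached the 2 that the study required of a released or loaded mRNA. The study's rule also limits E at the other stage and the size of ΔE, so an E of 2 alone does not meet it. Under separate normalization Rest probe 1 reached 2.01 in ES with 0.71 in ELA, and with the processed intensity Rcor1 probe 1 was at 2.00 in ES with 0.93 in ELA. Both ELA values were above the limit that the study first set, which it relaxed for later analyses. Both falls in E were smaller than the ΔE that it required.

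After ELA the 2 genes took different courses. Rcor1 went back to 1.67 and 1.05 in NPC and to 1.59 and 1.11 in NPC/Neu at probes 1 and 2. Its ΔE from ELA to NPC was 0.93 (spot SD 0.21) and 0.84 (spot SD 0.08). Both its Ago–RNA and its total RNA were higher in NPC than in ELA, by 1.55 and 0.71 at probe 2. Rest probe 2 was at 1.08 in NPC and 1.25 in NPC/Neu, but Rest probe 1 was at 0.49 and 0.22. In NPC/Neu the Rest probes thus differed by far more than their spot SDs of 0.09 and 0.07. Probe 1 also lies in a short annotated transcript, Rest-201, that does not contain probe 2.

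The phosphatases differed among themselves. Ctdspl kept a positive E at both probes and all stages, between 0.55 and 1.09. Ctdsp1 was at −0.44, −0.24, −0.26 and −0.45, negative at each stage, although in ES, ELA and NPC the sign turned when Ago–RNA and total RNA were normalized separately. Ctdsp2 moved upwards at each of its probes. E of probe 2 went from −0.45 in ES and −0.43 in ELA to 0.47 in NPC and 1.02 in NPC/Neu. Probe 1, overlapping it, went from −0.53 and −0.44 to 0.07 and 0.42, and probe 3 from −0.06 and 0.02 to 0.32 and 0.59. The 3 probes, which disagreed in total RNA, thus shared the direction of E, with a ΔE from ES to NPC/Neu of 0.95, 1.48 and 0.65 (spot SD 0.13, 0.14 and 0.12).

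Ptbp1 and Ptbp2 also parted in E. Ptbp1 was at 0.13, 0.24, 0.35 and 0.82 at probe 1 and at 0.48, 0.12, 0.35 and 0.64 at probe 2. Its highest value at both probes was in NPC/Neu, where total RNA was lowest. Ptbp2 went the other way, at −0.07, −0.39, −0.81 and −0.78, and in NPC and NPC/Neu its E was negative under every alternative, between −0.86 and −0.30. In NPC only 11.0% of all probes had a lower E than Ptbp2. Onecut2 went from 1.21 in ES and 0.71 in ELA to −0.19 in NPC and −0.26 in NPC/Neu, with values of 0.29 and 0.20 at the last 2 stages under separate normalization. Its ΔE from ELA to NPC was −0.90 (spot SD 0.09), from a difference of 0.65 in Ago–RNA and of 1.55 in total RNA. Nr2e1 had no E in ES and ELA, since neither RNA was well above background. It was at 0.09 in NPC and 0.08 in NPC/Neu (spot SD 0.07 in both), that is, at parity with all arrays normalized together. Under separate normalization its E was 0.44 in NPC and 0.57 in NPC/Neu, and with scaling to the 75th percentile 0.07 and 0.31.

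**Figure D3:**
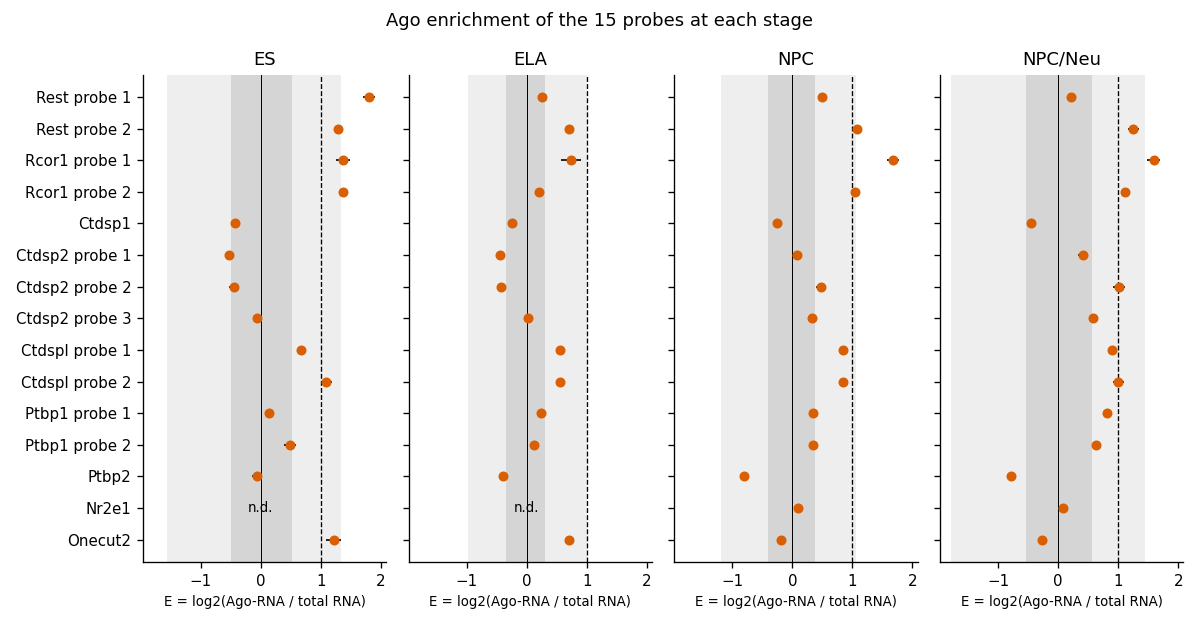
Ago enrichment E (horizontal axis, log2 signal of Ago–RNA minus that of total RNA) of the 15 probes (rows) at each stage; bars are 1 spot SD, the dark band runs from the lower to the upper quartile of all probes compared and the light band the 5th to 95th percentile, and the dashed line marks 1. Rest probes 1 and 2 sit at 1.80 and 1.29 in ES, no probe passes the line in ELA, and Nr2e1 has no value (n.d.) in ES and ELA.

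In NPC, 3 of 15 member probes had an E of at least 1 (both of Rcor1 and Rest probe 2), against 5.99% of all probes, and in NPC/Neu 4 of 15 had (the same 3 and Ctdsp2 probe 2), against 12.3%. None was at −1 or below in NPC, against 7.42%, or in NPC/Neu, against 13.6%. The variation of E was under 1 in size for all 14 probes from ELA to NPC, where 2.10% of all probes were at 1 or above and 3.99% at −1 or below, and for all 15 from NPC to NPC/Neu, where 2.44% and 4.84% were. Ctdspl probe 2, at 1.00, was just under the limit in NPC/Neu and Ctdsp2 probe 2, at 1.02, just over it, so these counts depend on the threshold.

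E moved with the length of the 3′ UTR over all genes, and the members have long ones. In ES the median E was −0.08 for genes with a 3′ UTR of up to 500 bases, 0.18 for 501 to 1500 bases and 0.40 for over 1500 bases, and 9.29%, 12.9% and 18.2% of these genes had a mean E of at least 1. In NPC/Neu the medians were −0.01, 0.24 and 0.41. All members but Nr2e1 and Ptbp1 have a 3′ UTR of over 1500 bases in the annotation. Within the genes of over 1500 bases, those with a miR-9 seed match had a median E of 0.50 in ES and 0.48 in NPC/Neu, and those without of 0.36 and 0.39. For 501 to 1500 bases the medians were 0.21 and 0.22 with a match, and 0.17 and 0.24 without. For up to 500 bases they were −0.02 and 0.30 with a match, in 104 and 103 genes, and −0.08 and −0.02 without. The part of UTR length in the values of the members was not tested.

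The genes around REST were described by lists, whose counts are given beside all genes. From ES to NPC/Neu, 16.6% of the 25628 genes compared were higher by 1 or more in total RNA, and also 16.6% were lower. Of 15 genes of the REST corepressor and turnover machinery, 7 were higher and 2 lower, with a median of 0.94 against −0.06 for all genes. Rcor3, a CoREST paralog, rose by 2.08. The scaffold Sin3a fell by 1.30 and the deacetylase Hdac1 by 1.03. In ES the highest E of the list was that of the H3K9 methyltransferase Ehmt2, at 1.60, and the lowest that of Hmg20b, a subunit of the LSD1–CoREST complex, at −0.03. The E of 5 of the 15 was at least 1 in ES, where 9.70% of genes were. In ELA none was, against 4.23%. In NPC/Neu 5 of 15 were, against 11.6%.

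Of the 20 neuronal genes known to carry an RE1 element, 19 could be compared, and 10 were higher and none lower in NPC/Neu than in ES, with a median of 1.30. From NPC to NPC/Neu 12 of 19 were higher by 1 or more, against 5.78% of all genes, and none was lower, against 4.13%, with a median of 1.57. From ELA to NPC 1 of 16 was higher, against 10.8%, and 2 were lower, against 10.3%, with a median of −0.08. Stmn3, a stathmin relative, rose by 4.15 and Tubb3, a neuronal tubulin, by 4.06 over the whole course. Bdnf, a neurotrophin, had the only negative difference of the list among genes measured at both stages, at −0.14. In ES, E was highest in Syn1, a synaptic vesicle protein, at 2.20, and lowest in Stmn3 at −1.66.

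Other reported targets of miR-124 had no common direction. Of 18 genes, 6 were higher and 2 lower in NPC/Neu, with a median of 0.01. The LIM homeodomain gene Lhx2 rose by 6.99 and the intermediate filament gene Vim by 4.40. The scaffold protein gene Iqgap1 fell by 1.29 and the laminin chain gene Lamc1 by 1.03. Lamc1 had the highest E of the list in ES, at 2.35, and Vamp3, a vesicle SNARE, the lowest at −1.03. In ES 5 of 17 genes reached 1, against 9.70% of all genes. In NPC, 7 of 17 did, against 5.71% of all genes.

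Of 13 other reported miR-9 targets on the array, 8 were higher and 1 lower in NPC/Neu, with a median of 1.46. Meis2, a homeobox gene, rose by 5.24 and Hmga2, a chromatin protein gene, by 1.70, whereas Sirt1, a deacetylase gene, fell by 1.04 and Prdm1 was lower by 0.91. Hmga2 had the highest E of the list in ES, at 1.39, and Stmn1, a tubulin-binding protein gene, the lowest at −1.19.

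Among 14 neuronal splicing regulators with Ptbp3 and Dlg4, 7 were higher and none lower, with a median of 0.95. Srrm4, the activator of neural microexons, rose by 6.21 and Elavl4, a neuronal RNA-binding protein, by 4.45. Ptbp3, listed on the array as Rod1, was lower by 0.85 and Khsrp by 0.28. Dlg4, whose neuronal splicing is held back by the PTB proteins, rose by 2.90. Elavl3 had the highest E in ES, at 1.44, and Nova2 the lowest at −0.11.

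Of the 8 relatives of the small CTD phosphatases, of Onecut2 and of Nr2e1, 7 could be compared, and 4 were higher and none lower. These 4 were the nuclear receptors Nr2f1 and Nr2f2, which rose by 9.07 and 7.27, and Onecut1 and Onecut3, which were not well above background in ES. Onecut1 is also counted among the miR-9 targets. The phosphatases Ctdp1 and Ctdspl2 were lower by 0.59 and 0.53. Ctdp1 had the highest E of this list in ES, at 1.83, and Ctdnep1 the lowest, at −0.20. Host transcripts of miR-124 and miR-9 were not matched by name on the array, and the miRNAs were not measured on it.

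**Figure D4:**
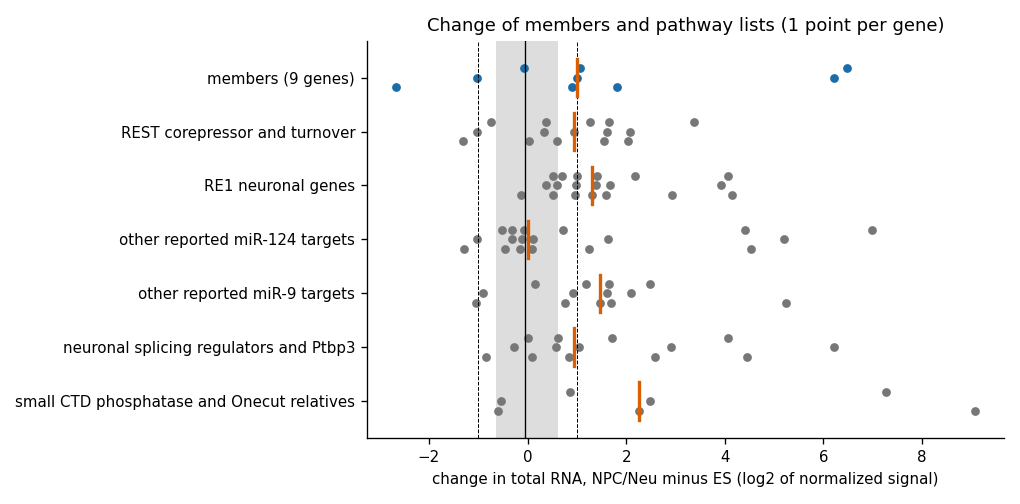
Change in total RNA from ES to NPC/Neu on the log2 scale (horizontal axis) for the 9 genes and for the lists around them, 1 point per gene as the mean of its probes; orange bars are list medians, the grey band runs from the lower to the upper quartile of all probes compared around their median (black line), and dashed lines mark −1 and 1. The neuronal genes known to carry an RE1 element lie to the right with a median of 1.30, while the miR-124 targets centre on 0.01.

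The profiles closest to Rest over the 8 arrays, by root mean square difference of centred log2 signals among 15413 genes measured on all of them, were Mybl2 at 0.23, Fam38a and Scand3 at 0.24, and Itgb4 and Atic at 0.27. All 5 had lower total RNA in NPC/Neu than in ES, with differences of −2.53 to −3.21 on the log2 scale. Their E in ES was between 0.80 and 1.77, and in ELA between −0.02 and 0.57. The profiles closest to Ptbp2 were Slc22a21 at 0.11, Tmtc4 at 0.13 and 2610301B20Rik at 0.14. Their total RNA was higher in NPC/Neu by 1.59 to 1.98, and their E there was −0.86, −0.71 and −0.45. A likeness over 8 arrays is a description and carries no further meaning here.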

How the data were processed

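Total RNA and Ago–RNA were measured on 8 one-color arrays (SurePrint G3 Mouse, mm9), 1 per condition, all on the same slide and in the same scan. The authors deposited spot intensity as written by Feature Extraction 10.7.3.1 per the file headers (9.1 in the submitters' processing notes), without normalization between arrays. The number of arrays limits the precision. From the mean and the local background of each spot, normexp-corrected values (offset 50) were made with limma 3.58.1 (R 4.3.3). After removal of 125 to 523 irregular spots per array, the 8 arrays were brought to 1 log2 distribution by quantiles, and spots of the same probe were averaged. A gene is the mean of its probes. Background correction, quantile normalization and calling were tested on simulated intensities. Further values were computed in Python 3.11.15 with numpy 2.4.6 and pandas 2.3.3. Probes were placed on GENCODE transcripts of the array's build.

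Members and lists were chosen with earlier results of these data known, and no list supports another. Named were all member probes, in each list the 2 largest rises and falls from ES to NPC/Neu and the highest and lowest E in ES among genes measured on both arrays, stage markers, and the 5 and 3 profiles nearest to Rest and Ptbp2. Olig2, Foxa2, Eomes and the markers set beside them were picked from the markers, and Dlg4, Onecut1 and Onecut3 from the lists, after their values were seen. Of 91 listed pathway genes, 88 were matched by name. The marker Map2 was also unmatched. One gene that the rule names is not reported here.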

Additional observations from a re-analysis of the deposited data

Results flagged for a closer look

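Enrichment of opposite sign at different stages, each beyond 2 spot SDs from 0, was seen in 3 probes of 2 genes. Onecut2 had an E of 1.21 in ES and 0.71 in ELA, and of −0.19 in NPC and −0.26 in NPC/Neu. Ctdsp2 probe 1 had −0.53 in ES and −0.44 in ELA, and 0.42 in NPC/Neu. Ctdsp2 probe 2 had −0.45 in ES and −0.43 in ELA, and 0.47 in NPC and 1.02 in NPC/Neu. Probes 1 and 2 of Ctdsp2 share 31 bases and are not independent. With 1 array per condition these differences between stages were not tested. Under separate normalization of Ago–RNA and total RNA, the later values of Onecut2 were 0.29 and 0.20 and the ELA value of Ctdsp2 probe 1 was 0.03, so those signs turned. The ES values of Ctdsp2 probes 1 and 2 were both −0.10 and the ELA value of probe 2 was −0.0, all within 2 spot SDs of 0. Under that setting no opposite sign beyond 2 spot SDs remained in these 3 probes. Ptbp2, not among them, then had an E of 0.35 in ES, −0.34 in NPC and −0.30 in NPC/Neu. Each of these values was beyond 2 of its spot SDs of 0.08, 0.05 and 0.07.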

How the results depend on the processing

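Each result was computed again with offsets of 16 and 0, from the processed intensity with quantile normalization or with scaling to the 75th percentile, with Ago–RNA and total RNA arrays quantile normalized separately, with irregular spots kept, with the probes that were well above background on all arrays compared, and, for genes, with the brightest probe. Of 346 recomputed counts, 325 stayed within 1.5 times. Single member values were less stable, as 614 stayed alike and 157 moved, and 1, that of Ctdsp2 given below, was classed as reversed. Smaller values also turned sign with the setting. Examples are E of Ctdsp1 in ES, between −0.46 and 0.04, of Ptbp2 in ES, between −0.10 and 0.35, and of Onecut2 in NPC, between −0.19 and 0.29. Scaling to the 75th percentile moved 48 of these values and left 54 alike, and separate normalization moved 40 and left 62 alike. Separate normalization shifted the median E of all probes to between 0.13 and 0.16, and the share of positive among calls of E in ES from 46.9% to 63.9%. Scaling to the 75th percentile shifted the median to between −0.17 and −0.30, and that share to 30.7%. Under separate normalization, the number of member probes with an E of at least 1 was 3 for ELA, 5 for NPC and 9 for NPC/Neu. Under separate normalization a ΔE of 1 or above from ELA to NPC was reached by 1 probe, where 2.18% of all probes did. With processed intensity it was also 1 probe, against 4.89% with quantile normalization and 4.19% with scaling. With scaling to the 75th percentile 2 member probes were lower in ELA than in ES by 1 or more in total RNA, against 11.1% of all probes. For E in ES of the lists, the processed intensity with quantile normalization gave 6 RE1 genes, 8 miR-124 targets and 6 splicing regulators at 1 or above. Of all probes, 19.4% were at 1 or above under that setting, against 10.6% in the main one. With an offset of 0 there were 4 splicing regulators, against 13.7% of all probes. Separate normalization gave 3 miR-9 targets and 4 splicing regulators at 1 or above, against 16.2% of all probes. At −1 or below it gave 1 RE1 gene and 0 targets of either miRNA, against 9.17%. Scaling gave 4 RE1 genes at −1 or below, against 27.7%. The brightest probe gave 2 miR-9 targets at 1 or above and 1 corepressor gene that fell. With processed intensity and quantile normalization 1 splicing regulator fell, where 24.0% of all probes did. With probes above background on both arrays 2 of the phosphatase and Onecut relatives rose, where 16.1% of all probes did. For Ctdsp2 from ELA to NPC the brightest probe gave 0.43, the opposite sign of the mean of its 3 probes. Where the cause is not plain from the setting itself, the cause was not tested. No paired analysis was possible because each group has 1 array. The lack of replicate arrays limits all values, and Nr2e1 has only bounds against ES and ELA.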
